A study of Arabidopsis thaliana with 39 samples.

Results

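The members described here are 150 abundant transcripts of the Arabidopsis root with close means in OZ1 and OZ2. Their signal varied most from array to array within regions, with the spread of OZ1 and OZ2 pooled. They were chosen from 22810 probe sets on log2 values. A probe set had to name 1 gene in the probe table, to be no control, to have a symbol that neither begins in lower case nor with one of 9 family prefixes (EXP and XTH among them), to have a mean of at least 9 over the 39 arrays and to differ by less than 1 between OZ1 and OZ2. Of the 764 probe sets that met these limits, the 150 with the largest pooled standard deviation (SD) within regions are the members, and the other 614 are called the other abundant probe sets below. The mean, the region difference and the SD chose the members and are given as descriptions with no test.

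Root pieces came from DR5-GUS seedlings, an auxin reporter line, in ecotype Columbia, 5 days after germination on standard media, and all 39 arrays share this background. There were 20 ATH1 arrays of OZ1 and 19 of OZ2, both parts of the oscillation zone of the root tip. The labels contradict each other on which of them is the upper part, so only the names are used. The series text speaks of individual roots, whereas 14 of the 25 numbers in the array titles occur in both OZ1 and OZ2, and nothing else says which arrays share a plant, so the p-values measure the spread between these arrays.

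The oscillation zone is the stretch behind the meristem where reporter activity and many transcripts pulse, and where cells are primed to become sites of lateral roots. Auxin response is one of the signals that pulse there, and each dissected root catches the zone at 1 moment of that pulse. Abundant transcripts of such a piece come from all its cell types, among them elongating epidermal, cortical and vascular cells. In bulk tissue, fewer cells of a type and less RNA per cell cannot be told apart.

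The 150 members are 150 different protein-coding genes, all matched to the reference annotation. For 27 of them the annotation gives a name that says what the gene is, and the other 123 carry a locus identifier with no role stated here. The 27 are named below by role whatever their values, a choice made after values were seen. Lists of gene families, matched on names, could say little about members with a locus identifier only: of 31 lists 26 had a tested probe set and 9 held a member, none more than 2. Some matches rest on words in a name alone. MSRB9 was counted under jasmonate, wounding and defence, AQI under water channels and VHA-A3 under respiratory chain and ATP synthase. Several of the 26 lists had no probe set within the limits of the rule and could hold no member. Of the cell type markers looked for, 11 had a probe set (root hair, lateral root founder, dividing cell and shoot genes), and none of these is a member. The rule left out all 11, so their absence says nothing about cell types. EXPA7 and EXPA18 carry an excluded prefix, and HTB1 differed too much between the regions (10.59 in OZ1 and 9.32 in OZ2). The rest had means below 9.

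Mean log2 signals of the members ran from 9.01 to 14.74 with a median of 9.86, and their pooled SD from 0.950 to 2.19 with a median of 1.09. The median pooled SD of the other abundant probe sets was 0.667. Just inside the limit lay AT3G07910 (0.964), AT3G48570 (0.960) and AT3G51130 (0.950), and just outside it AT2G41410 (0.949), YKT61 (0.946) and AT3G02880 (0.945), so the limit falls in a continuous run of values.

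AT2G23910 had the largest spread of all. Its log2 signal had a lowest value of 5.83, a median of 9.26 and a highest value of 11.17 in OZ1, and 2.85, 10.25 and 11.89 in OZ2. Its low arrays were scattered, with OZ1-35 lowest in OZ1, and OZ2-36 and then OZ2-9 lowest in OZ2. All OZ1 values lay within the OZ2 range.

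AT1G67330 was on most arrays a very abundant transcript, with OZ1 values from 10.56 through a median of 12.36 to 13.82. In OZ2 its median was 12.90 and its highest value 14.10, while OZ2-10 stood at 3.09 and the next lowest array, OZ2-32, at 8.14. AT4G11290 behaved alike in OZ2, with 3.07 on OZ2-10, a median of 10.82 and a highest value of 11.83, and in OZ1 it ran from 6.83 through 9.66 to 13.13. In both genes OZ2-10 alone lay below every OZ1 array by more than 3 log2 units.

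**Figure D1:**
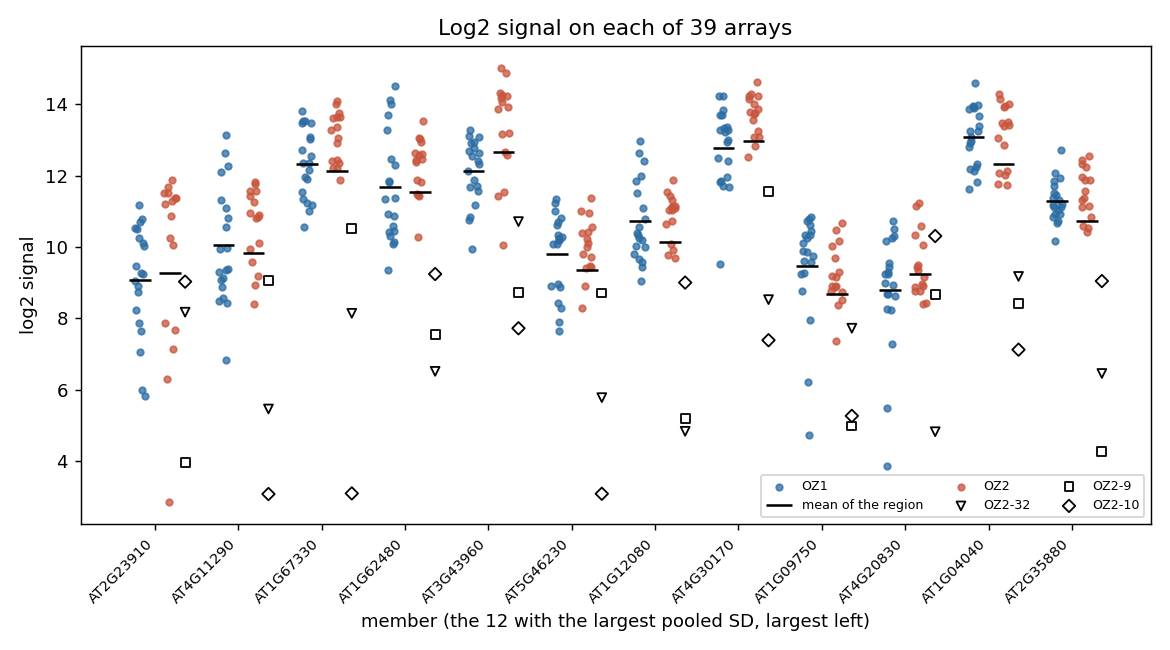
Log2 signal (vertical axis) of the 12 members with the largest pooled SD on each of 39 arrays, with OZ1 in blue, OZ2 in red, the mean of each region as a black bar, and arrays OZ2-32, OZ2-9 and OZ2-10 drawn as open symbols. One or more of the open symbols lies at the bottom of the OZ2 values for each gene, except for AT2G23910, whose lowest value of 2.85 is on OZ2-36.

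The remaining members among the 12 with the largest SD were AT1G62480, AT3G43960, AT5G46230, AT1G12080, AT4G30170, AT1G09750, AT4G20830, AT1G04040 and AT2G35880, with pooled SDs from 1.72 down to 1.53. OZ2-10 held the lowest OZ2 value of AT3G43960 (7.72 against an OZ2 median of 13.19), AT5G46230 (3.08 against 9.81), AT4G30170 (7.39 against 13.73) and AT1G04040 (7.12 against 13.04). OZ2-32 held that of AT1G62480 (6.51 against 12.38), AT1G12080 (4.83 against 11.03) and AT4G20830 (4.82 against 9.16). OZ2-9 held that of AT1G09750 (4.98 against 8.89) and AT2G35880 (4.28 against 11.33). Each of the 9 was thus high on most OZ2 arrays and low on a few.

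Few arrays carried much of the members' spread. OZ2-32 held 14.7% of the members' squared deviations from the region means, OZ2-9 held 12.3% and OZ2-10 held 8.36%. An even division over the arrays gives 2.56% each. Of the squared deviations of the other abundant probe sets, these arrays held 9.98%, 8.41% and 4.04% in that order. For 99 of the 150 members the array farthest from its region mean was one of these, namely OZ2-32 for 48, OZ2-9 for 31 and OZ2-10 for 20. On OZ2-32, 72 members lay more than 2 log2 units below the region mean and 6 lay as far above it. On OZ2-9 these counts were 49 and 2, and on OZ2-10 they were 25 and 7. These counts rest on the deviations that chose the members, so they describe that choice and are not a trait of these genes. On OZ2-32, OZ2-9 and OZ2-10 in that order, 82.7%, 85.3% and 56.7% of the members lay below the region mean. Of the other abundant probe sets 77.5%, 76.4% and 61.2% did.

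The sets of low members overlapped in part. Those more than 2 units low on OZ2-32 and on OZ2-9 shared 18 members (25% of the first set, 36.7% of the second). OZ2-10 shared 13 of its 25 with OZ2-32 (52% of its own set and 18.1% of that of OZ2-32) and 8 with OZ2-9 (32% and 16.3%). Of the 150 members, 72, 49 and 25 were that low on OZ2-32, OZ2-9 and OZ2-10. Unrelated sets of these sizes would overlap about as much or more, so the overlaps are no sign of a link between the arrays. Of 5850 member values 76, from 58 members, lay below the log2 level of 5.69 used to filter dim probe sets, and 26 of these were on OZ2-9, 24 on OZ2-32 and 6 on OZ2-10.

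OZ2 showed the wider spread for most members. The OZ2 SD was above the OZ1 SD in 108 of 150 members (72%), against 60.1% of the other abundant probe sets. The OZ2 SD was more than 2 times the OZ1 SD in 22 members and the reverse held in 1. Ranked by OZ1 SD alone or by OZ2 SD alone among the same 764 probe sets, the top 150 lists shared 70 probe sets, which is 46.7% of each list. Of the members, 101 were in the OZ1 list, 119 in the OZ2 list and 70 in both. A member thus need not vary strongly in each region.

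**Figure D2:**
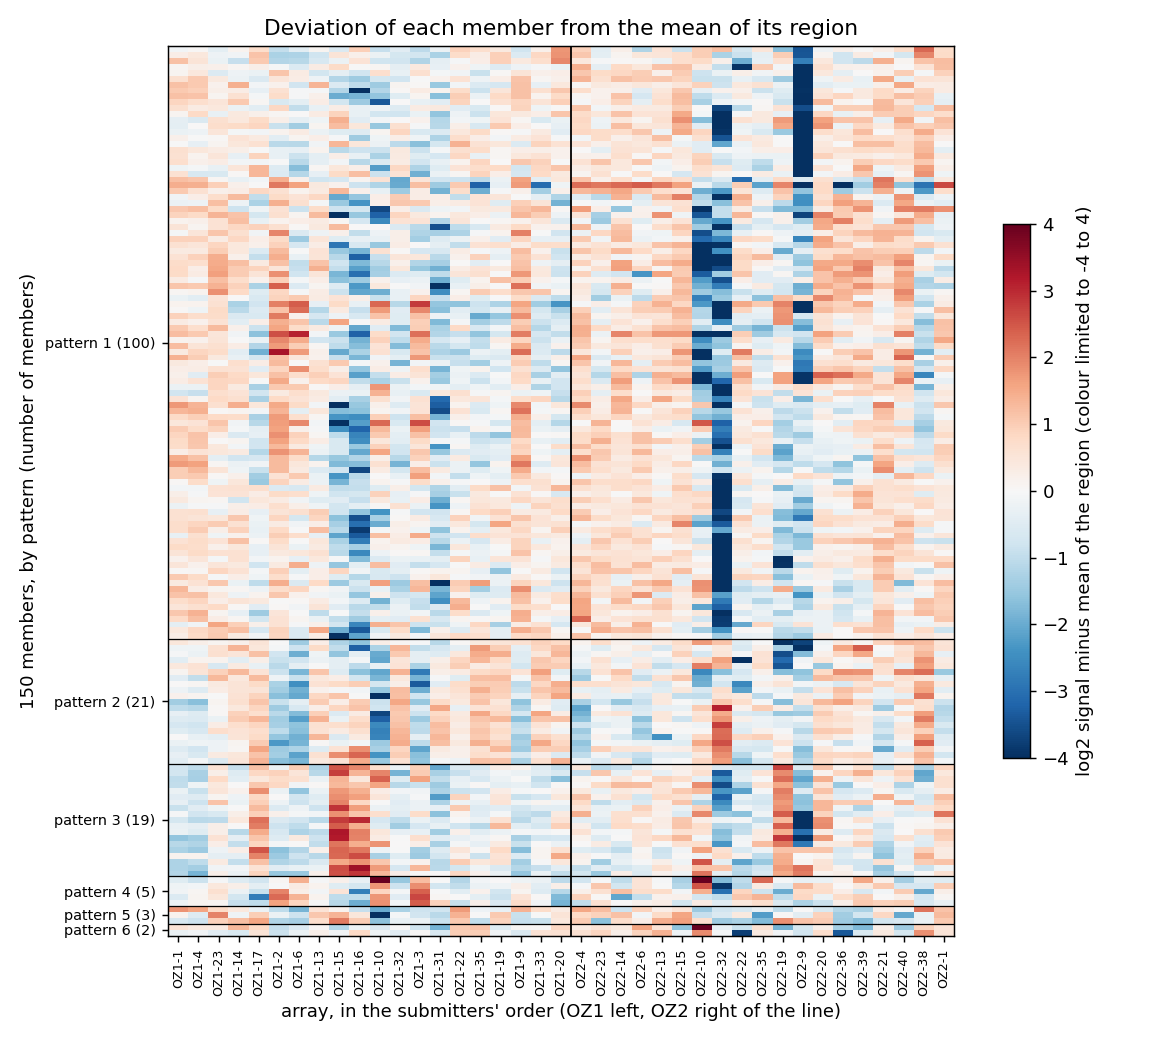
Deviation of each of the 150 members (rows, grouped into 6 patterns by correlation) from the mean of its region, in log2 units, on the 39 arrays in the submitters' order (columns, OZ1 left of the line and OZ2 right of it). Dark blue blocks on OZ2-10, OZ2-32 and OZ2-9 in pattern 1 (100 members) cover partly the same members. Of the 150 members, 18 were over 2 units low on both OZ2-32 and OZ2-9 and 13 on both OZ2-32 and OZ2-10. Unrelated sets of these sizes would share about as many or more. Red blocks on OZ1-15 and OZ1-16 mark pattern 3 (19 members).

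Bacterial hybridisation controls, added to each labelled sample before hybridisation, match no plant transcript. Their share is taken of the whole signal, plant probe sets included, and all values had been scaled per array. Their share and their level thus also depend on the plant signal. They took 0.836% to 10.5% of the signal on OZ1 arrays and 1.50% to 17.3% on OZ2 arrays. OZ2-32 (17.3%) and OZ2-9 (14.8%) had the highest shares of all arrays, and the members' median deviation there was -1.85 and -1.40 log2 units. OZ2-10 had 3.59% and a median deviation of -0.23.

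On 11 arrays the controls exceeded 5% (6 of OZ1 and 5 of OZ2), and on all 11 the members' median deviation was below 0, against 3 of the other 28. The same held for the other abundant probe sets. Their median deviation was below 0 on all 11, from -0.03 on OZ2-35 to -0.69 on OZ2-32, and elsewhere only on OZ2-10 (-0.22). Those 11 arrays carried 55.6% of the members' squared deviations and 51.2% of those of the other abundant probe sets. Over the remaining 28 arrays the median pooled SD of the members was 0.790 and that of the other abundant probe sets 0.507. The OZ2 SD was there above the OZ1 SD in 89 of the 150 members, against 108 over all 39 arrays. The top 150 lists by OZ1 SD and by OZ2 SD shared 78 probe sets over those 28 arrays, against 70 over all 39. The median correlation between pairs of members, a description over arrays that share scaling and labelling, was 0.246 on 39 arrays and 0.0465 on 28. For the other abundant probe sets these values were 0.193 and 0.0443.

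**Figure D3:**
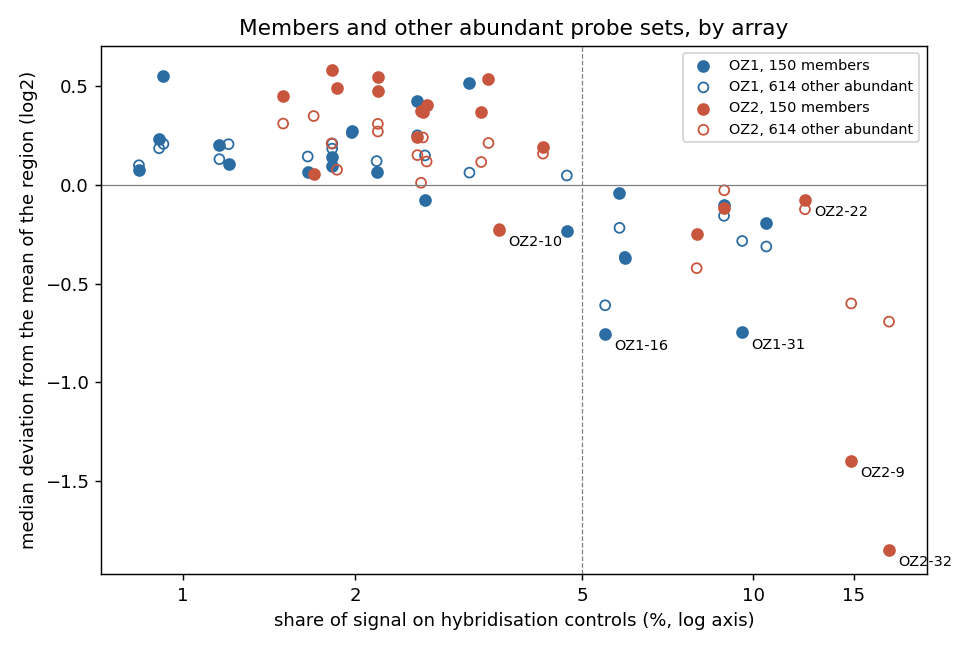
Median deviation from the region mean (log2 units) of the 150 members (filled) and of the 614 other abundant probe sets (open) on each array, against the share of signal on hybridisation controls (%, log axis), with OZ1 in blue and OZ2 in red. The dashed line marks 5%, to the right of which all 11 filled and all 11 open points lie below 0. OZ2-32 is lowest for both, at -1.85 (filled) and -0.69 (open).

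The signals of single members were set against the control level, the mean log2 signal of 18 control probe sets, with the region as a term (limma, Benjamini-Hochberg adjustment over 13627 tested probe sets, threshold 0.05). Of all tested probe sets 25.2% passed, 12% rising and 13.2% falling with the control level. Of the 150 members 76 passed, 3 rising and 73 falling, and of the 614 other abundant probe sets 277 passed (45.1%). An ordinary F-test, whose SD is not drawn toward that of other genes, called 71 members, 3 rising and 68 falling. It called 24.9% of all tested probe sets. The control level took a median of 14.4% of the members' variance within regions and 15.4% of that of the other abundant probe sets. The median slope was -0.35 for members, -0.20 for the other abundant probe sets and 0.01 over all tested probe sets. Whether the control level has a part in the spread of a given member was not tested.

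Over the 28 arrays with controls at or under 5%, 4.3% of all tested probe sets passed (2.16% rising and 2.14% falling), and 18 members did, 5 rising and 13 falling. Of these, 15 had passed in the same direction over all 39 arrays. The order of the arrays and the control level overlap: with the 3 harmonics of the order as terms, 1 member and 0.198% of all tested probe sets passed.

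The steepest falls were those of AT4G20830 and GEM. AT4G20830 had log2 signals of 3.86, 9.12 and 10.72 (lowest, median and highest) in OZ1 and 4.82, 9.16 and 11.22 in OZ2, and fell by 0.78 per log2 unit of the control level (SE 0.15, limma adjusted p = 0.00025). GEM is a modulator of GL2 expression, known from hair patterning in the root epidermis. It had 5.99, 9.88 and 10.59 in OZ1 and 5.17, 9.68 and 10.43 in OZ2, with a slope of -0.70 ± 0.13 SE (limma adjusted p = 8.41e-05). Both regions spanned nearly the same range in each gene, with a low tail on single arrays.

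Over the 28 arrays AT4G20830 had a slope of -0.59 and no longer passed (limma adjusted p = 0.0905). The slope of GEM was -0.16 over the 28 arrays and no longer passed (limma adjusted p = 0.588). AP2M (AT5G46630) encodes the medium subunit of the AP-2 adaptor of clathrin-coated endocytosis. It lay between 8.53 and 11.23 in OZ1 with a median of 10.21, and in OZ2 between 4.41 and 10.99 with a median of 10.02. Its slope of -0.66 ± 0.13 SE passed (limma adjusted p = 0.000202), and it passed again over the 28 arrays with -0.44 (limma adjusted p = 0.0315).

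AT1G14670 fell by 0.66 per unit of the control level (SE 0.12, limma adjusted p = 0.000101), and did not pass over the 28 arrays (slope -0.35, limma adjusted p = 0.203). SPP, a signal peptide peptidase that cuts within membranes, had the smallest adjusted p of any member (limma adjusted p = 1.1e-06, slope -0.64 ± 0.08 SE), and the control level took 62.8% of its variance within regions. Its slope over the 28 arrays was -0.46 (limma adjusted p = 0.0552). Its log2 signals were 7.39, 10.01 and 11.14 in OZ1 and 6.36, 9.32 and 10.74 in OZ2, lowest on OZ1-31 and OZ2-32, both with controls over 5%. PYK10, a beta-glucosidase of the root ER bodies, had 8.89, 10.87 and 12.69 in OZ1 and 8.66, 10.07 and 12.25 in OZ2.

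PYK10 had a slope of -0.63 ± 0.10 SE (limma adjusted p = 2.79e-05), and over the 28 arrays the slope was -1.06 (limma adjusted p = 0.0027). Its spread was nearly the same with and without the 11 arrays (pooled SD 1.09 and 1.06). It was high on OZ1-1 and OZ2-38, both with low control shares, and low on OZ1-10 and OZ2-10.

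The 3 members that rose with the control level were AT2G07741 (slope 0.57 ± 0.12 SE, limma adjusted p = 0.000593), AT2G07708 (0.41 ± 0.13 SE, limma adjusted p = 0.0191) and AT3G07230 (0.40 ± 0.11 SE, limma adjusted p = 0.00864). AT2G07708 no longer passed over the 28 arrays (slope 0.62, limma adjusted p = 0.0740). AT2G07741 had log2 signals of 8.25, 9.26 and 13.00 in OZ1 and 7.91, 9.34 and 11.66 in OZ2, highest on OZ1-16 and OZ2-9. AT2G07741, AT2G07708 and AT2G07751 are the only members whose probe sets carry the suffix for probes shared between several transcripts. Their deviations correlated with the mean of 15 probe sets of mitochondrion-encoded genes at 0.891, 0.866 and 0.653 over the 39 arrays, where the median of the other members was -0.31 and the highest 0.736. Signal from related mitochondrial sequences may be counted in these probe sets, so their gene identity is uncertain.

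The slope differed between OZ1 and OZ2 in 1 member, AT5G59210, where 0.176% of all tested probe sets passed that test (0.0514% with the higher and 0.125% with the lower slope in OZ2). In OZ1 its log2 signal stayed between 9.19 and 10.66 with a median of 9.74. In OZ2 the median was 9.50 and the highest value 10.35, while OZ2-9 stood at 4.43 and OZ2-32 at 4.91. The slope was lower in OZ2 by 1.15 ± 0.20 SE (slope difference -1.15, limma adjusted p = 0.00408), and no member passed without the 11 arrays or without OZ2-32, OZ2-9 and OZ2-10.

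Of the 25 members more than 2 units low on OZ2-10, 7 were that low on neither OZ2-32 nor OZ2-9. Those more than 4 log2 units below the OZ2 mean there were AT1G67330, AT4G11290, AT5G46230, AT4G30170, THE1, AT1G04040, MSRB9, AT3G43960, AT4G31470, LEA27 (AT2G46140) and AT2G45180, the last and AT4G31470 chosen after their values were seen. The root hair expansins EXPA7 and EXPA18, which are no members, were also low on OZ2-10, by 4.02 and 3.51 log2 units. The summed signal of these markers, 2 of 7 listed root hair genes, had a log2 of 8.44 on OZ2-10, against a range of 7.23 to 14.04 and a median of 12.89 in OZ2, and 5.56 to 12.56 in OZ1.

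Over the other 38 arrays the 25 members low on OZ2-10 correlated with EXPA7 at a median of 0.225, with a range from -0.427 to 0.690, and the other 125 members at a median of 0.116. With EXPA18 these medians were 0.143 and 0.154. Whether the root hair cells in the piece have a part in the low values was not tested. Of the other marker lists, 5 of 9 genes of dividing cells summed to a log2 of 11.70 on OZ2-32, near the top of the OZ2 range of 8.68 to 11.76. Their sum was 8.94 on OZ2-9 and 11.15 on OZ2-10. The sum of 3 of 5 founder cell genes was 10.24 on OZ2-9, the highest of OZ2. It was 9.18 on OZ2-32 and 9.74 on OZ2-10, against an OZ2 median of 8.01. The ratio of 3′ to 5′ GAPDH signal, a sign of RNA length, had a log2 of 5.26 on OZ2-10, 6.02 on OZ2-32 and 6.85 on OZ2-9, within the OZ2 range of 4.80 to 9.23. The same ratio for actin was 2.36 on OZ2-9 and 2.64 on OZ2-32, the lowest of all 39 arrays, and 4.36 on OZ2-10, against an OZ2 median of 4.95. For ubiquitin it was 4.30 on OZ2-32, the highest of OZ2, 3.53 on OZ2-9 and 3.64 on OZ2-10. The part of RNA length in the members' low values was not tested.

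Among the members of the cell surface and wall, THE1 is a receptor kinase of the plasma membrane that monitors the wall. Its log2 signal was 8.66, 10.26 and 12.22 (lowest, median, highest) in OZ1 and 4.34, 10.34 and 12.25 in OZ2, with OZ2-10 lowest and OZ2-9 next at 7.59. COB, a GPI-anchored protein needed for ordered cellulose deposition in elongating root cells, had 7.19, 9.65 and 11.28 in OZ1 and 6.22, 10.00 and 11.13 in OZ2. SBT4.12, a subtilisin-type protease, had 6.37, 10.97 and 13.67 in OZ1 and 8.77, 12.01 and 14.46 in OZ2.

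OZ2-10 held the lowest THE1 value of OZ2 and the highest SBT4.12 value, while SBT4.12 was lowest on OZ1-15 and OZ2-32. None of these genes passed against the control level, the smallest limma adjusted p being 0.0589 for COB. Without the 6 arrays nearer the other region COB (slope -0.36, limma adjusted p = 0.0128) and SBT4.12 (slope -0.51, limma adjusted p = 0.0110) passed.

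HIRD11 (AT1G54410), LTI30 and LEA27 belong to the dehydrins and late embryogenesis abundant proteins, which protect proteins and membranes in drying cells. HIRD11 had the highest mean of all 150 members, with 13.23, 14.50 and 16.67 in OZ1 and 12.09, 15.27 and 17.05 in OZ2. LTI30 had 9.64, 10.98 and 12.62 in OZ1 and 8.02, 11.87 and 13.45 in OZ2. LEA27 had 9.43, 11.39 and 12.53 in OZ1 and 7.54, 12.71 and 13.29 in OZ2.

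HIRD11 and LTI30 were both low on OZ2-9 and OZ2-32, whereas LEA27 was lowest on OZ2-10, where LTI30 was highest. The pooled SD of HIRD11 was 1.07 over 39 arrays and 0.613 over the 28 with controls at or under 5%, whereas LEA27 had 1.14 over those 28. No gene of this group passed against the control level over 39 arrays, and without OZ2-32, OZ2-9 and OZ2-10 HIRD11 rose with it (slope 0.42, limma adjusted p = 0.00837).

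MSRB9 and GSTU27 act in redox repair and conjugation, MSRB9 by reducing oxidised methionine and GSTU27 as a tau-class glutathione transferase. MSRB9 had 8.04, 11.84 and 13.01 in OZ1 and 5.71, 10.97 and 12.79 in OZ2, and fell with the control level (slope -0.59 ± 0.16 SE, limma adjusted p = 0.0052). That call was lost over the 28 arrays (slope -0.41, limma adjusted p = 0.540) and without the 6 arrays nearer the other region (limma adjusted p = 0.0574). GSTU27 had 9.17, 10.91 and 12.96 in OZ1 and 9.14, 11.76 and 13.19 in OZ2, and its slope of -0.10 did not pass (limma adjusted p = 0.587). Both were lowest in OZ2 on OZ2-10.

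IAGLU, the enzyme that joins glucose to the auxin indole-3-acetic acid, is the only member of the auxin list. Its log2 signal was 7.86, 9.44 and 11.33 in OZ1 and 5.84, 9.86 and 12.47 in OZ2. It was high on OZ1-15, OZ2-19 and OZ2-10 and low on OZ2-9, and the regions overlapped throughout.

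AP2M, VHA-D (AT3G58730), VHA-A3 and PRA1.B6 are the 4 named members of membrane traffic and the vacuole, VHA-D and VHA-A3 being subunits of the vacuolar proton pump and PRA1.B6 a prenylated Rab acceptor. All 4 fell with the control level, with slopes of -0.66, -0.53, -0.49 and -0.52 in that order and limma adjusted p from 0.000202 to 0.00131. This role was put together after values were seen, and 73 of all 150 members fell likewise, so the count is no sign of a difference from the other members. Over the 28 arrays AP2M, VHA-D (slope -1.01, limma adjusted p = 0.00271) and VHA-A3 (slope -0.57, limma adjusted p = 0.0411) passed, and PRA1.B6 did not (slope -0.17, limma adjusted p = 0.682).

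VHA-D had log2 signals of 7.72, 9.71 and 11.71 in OZ1 and 7.96, 10.09 and 11.48 in OZ2, with no single array far from the rest. VHA-A3 had 8.26, 9.73 and 11.06 in OZ1, and in OZ2 it had 5.79 on OZ2-32, 8.85 on the next lowest array, a median of 9.51 and a highest value of 11.93. PRA1.B6 had 8.32, 11.66 and 12.94 in OZ1 and 7.24, 10.86 and 12.53 in OZ2.

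Of the metabolic enzymes, FATB releases saturated fatty acids in the plastid, ACLA-3 is a subunit of the cytosolic enzyme that makes acetyl-CoA from citrate, and IDH-VI belongs to mitochondrial isocitrate dehydrogenase. IDH-VI was steady but for a few arrays, with 5.44, 10.19 and 10.89 in OZ1 and 8.68, 10.29 and 11.32 in OZ2. OZ1-15 was its lowest array and the next lowest OZ1 array stood at 7.74. Over the 28 arrays its pooled SD was 0.366 against 1.02 over all.

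FATB by contrast kept its spread, with a pooled SD of 1.07 against 1.19. It ran from 8.97 to 12.70 in OZ1 and from 8.89 to 12.46 in OZ2, high on OZ1-15 and OZ2-19. ACLA-3 ran from 7.58 to 10.99 in OZ1 and from 7.14 to 11.51 in OZ2 and was also highest in OZ2 on OZ2-19.

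**Figure D4:**
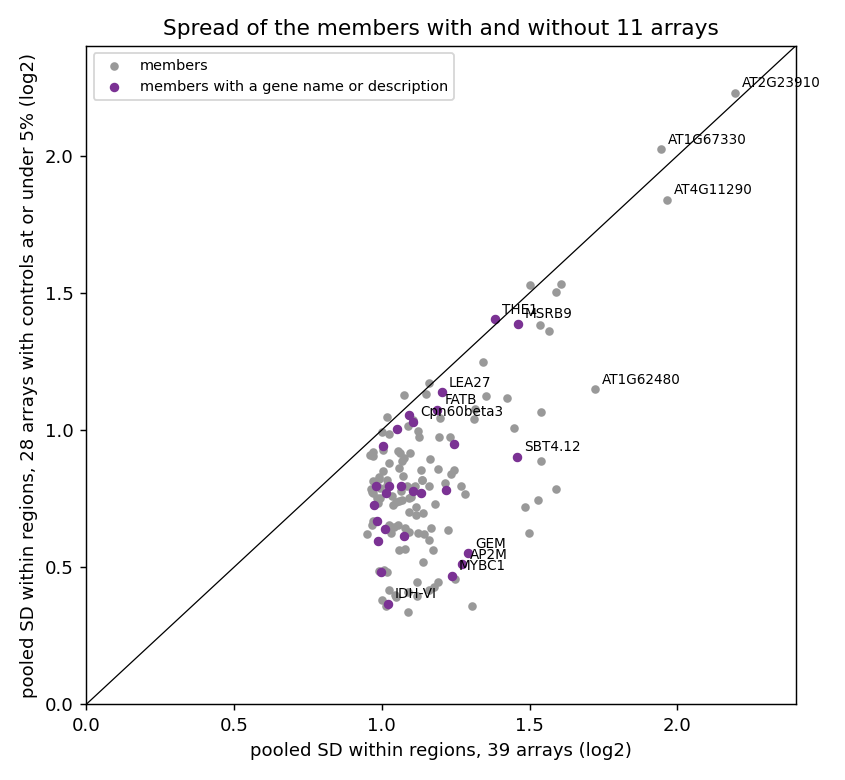
Pooled SD within regions (log2 units) of each member over the 28 arrays with controls at or under 5% (vertical axis) against that over all 39 arrays (horizontal axis), with the 27 members that have a name or description in purple and the diagonal marking equal values. IDH-VI, MYBC1, AP2M and GEM lie far below the diagonal, and AT2G23910, AT1G67330 and THE1 lie near it.

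Regulators among the members were GEM, described above, the transcription factors LEP and MYBC1, and PIA1, a type 2C protein phosphatase. MYBC1 had 5.50, 9.19 and 10.35 in OZ1 and 4.80, 9.84 and 10.60 in OZ2. It fell with the control level (slope -0.42, limma adjusted p = 0.0261) over all arrays, while over the 28 arrays the slope was 0.07 (limma adjusted p = 0.809) and without OZ2-32, OZ2-9 and OZ2-10 it was -0.17 (limma adjusted p = 0.358). LEP had 7.56, 9.85 and 10.86 in OZ1 and 4.92, 8.75 and 10.96 in OZ2, and its slope of -0.19 did not pass (limma adjusted p = 0.396).

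PIA1 ran from 9.09 to 12.44 in OZ1 and from 8.98 to 13.31 in OZ2, high on OZ1-15 and OZ2-19 like FATB. Of the RNA polymerase subunits, NRPB6B had 7.65, 9.64 and 10.91 in OZ1 and 4.43, 8.69 and 10.41 in OZ2, with OZ2-9 lowest and the next array at 7.94. NRPB12 had 9.46, 11.46 and 12.79 in OZ1 and 9.17, 10.88 and 12.52 in OZ2. NRPB12 was highest in OZ2 on OZ2-32. On that array 124 of the 150 members (82.7%) and 77.5% of the other abundant probe sets lay below the region mean.

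Cpn60beta3, a subunit of the plastid chaperonin, had 8.73, 9.43 and 10.55 in OZ1 and 5.02, 9.13 and 10.67 in OZ2. Its low arrays were OZ2-22 and OZ2-36, and its OZ2 SD of 1.47 stood against 0.56 in OZ1. WLIM2a, an actin-binding LIM protein, had 8.08, 10.78 and 12.29 in OZ1 and 9.43, 11.61 and 12.50 in OZ2, with a slope of -0.37 on the control level (limma adjusted p = 0.0235). AQI, an aquaporin interactor, had 8.10, 9.18 and 10.26 in OZ1 and 4.58, 9.58 and 10.67 in OZ2, and also fell with the control level (slope -0.38, limma adjusted p = 0.0126). WLIM2a no longer passed over the 28 arrays (slope -0.27, limma adjusted p = 0.476), without OZ2-32, OZ2-9 and OZ2-10 (limma adjusted p = 0.0929) or with quantile normalization (limma adjusted p = 0.198). AQI no longer passed over the 28 arrays (slope -0.29, limma adjusted p = 0.189), without those 3 arrays (slope -0.19, limma adjusted p = 0.116) or without the 6 nearer the other region (slope -0.23, limma adjusted p = 0.067).

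Of the 27 members with a name, 12 thus fell with the control level, none rose and 15 did not pass. Of the 12, 4 also passed over the 28 arrays with controls at or under 5% and 9 without OZ2-32, OZ2-9 and OZ2-10. The array farthest from the region mean was OZ2-32 or OZ2-9 for 15 of them.

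**Figure D5:**
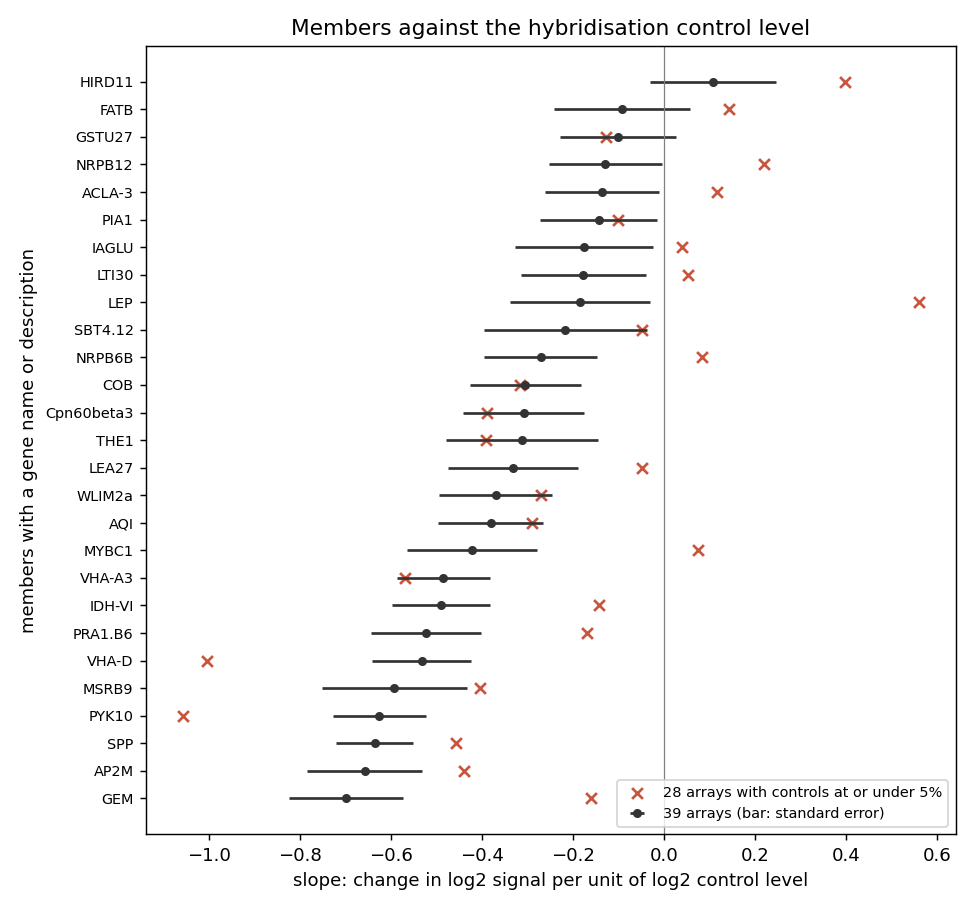
Slope of each of the 27 members that have a name or description on the hybridisation control level, in log2 signal per log2 unit of the control level, with its standard error over 39 arrays (dots and bars) and as a value over the 28 arrays with controls at or under 5% (crosses). GEM, AP2M, SPP and PYK10 have the steepest falls over 39 arrays, and PYK10 and VHA-D have crosses near -1.06 and -1.01.

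Grouped by the correlation of their deviations (average linkage, 6 groups, a description of the same values that chose them), 100 members formed pattern 1, and 66 of these fell with the control level. Its mean deviation was lowest on OZ2-32 (-2.67), OZ2-9 (-2.03), OZ1-16 (-1.31), OZ2-10 (-1.10) and OZ1-31 (-1.04), arrays of both regions. Pattern 2 held 21 members, among them NRPB12, of which 19 had the lower mean in OZ2. Its mean deviation was lowest on OZ1-10 (-1.89), OZ1-6 (-1.51), OZ1-3 (-1.28), OZ1-2 (-1.12) and OZ2-9 (-1.11), and highest on OZ2-38 (1.42), OZ2-32 (1.26) and OZ1-35 (1.04). Of these arrays OZ2-9 and OZ1-35 lay near their own region in the whole profile, and the other 6 lay nearer the other region.

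Pattern 3 held 19 members, among them LTI30, HIRD11, IAGLU, ACLA-3 and the 3 probe sets with the mitochondrial likeness. They were high on OZ1-15, OZ1-16 and OZ2-19, and the mean of the mitochondrion-encoded probe sets was also high there, by 2.15, 2.57 and 1.90 log2 units. On OZ2-9 and OZ2-32 the 2 parted. The mean deviation of pattern 3 was lowest there (-1.62 and -1.41), while the mean of the mitochondrion-encoded probe sets was raised (1.08 and 1.05). The remaining patterns held 5, 3 and 2 members, and PYK10 and FATB shared the pattern of 3.

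The submitters' order of the arrays, made to find periodic expression, was not used to choose the members. Along it, with the region as a term, 0 of 150 members passed limma's F-test of 3 harmonics, where 0.411% of all tested probe sets passed. At an unadjusted limma p under 0.05 there were 43 of the 150 members, 135 of the 614 other abundant probe sets and 1854 of all 13627 tested. The ordinary F-test called 0 members here, within each region and for the scan day. Of all tested probe sets it called 0.462% here, 0.139% within OZ1, and 0% within OZ2 and for the scan day. The order took a median of 20.8% of the members' variance and 23.1% of that of the other abundant probe sets.

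Within OZ1 alone limma called 0 members with a spline of the order, with a background of 0.147%. There, 31 of 150 members and 1582 of all 13627 tested probe sets had an unadjusted p under 0.05. Within OZ2 alone limma called 0 members and 0 probe sets in all (0%). There, 15 members and 771 of all tested probe sets had an unadjusted p under 0.05. The moderation of the SD favours genes chosen for a large one, so these unadjusted counts of members are not to be read as an excess.

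The scan day, the only batch the files give, was tested within regions, since day 1 held 12 OZ1 and 10 OZ2 arrays, day 2 the other 8 of OZ1 and day 3 the other 9 of OZ2. Limma called 0 members and 0 probe sets (0%). At an unadjusted p under 0.05 there were 60 of 150 members, 105 of the 614 other abundant probe sets and 1820 of all 13627 tested. As for the order, the unadjusted count of members is not to be read as an excess. The scan day took a median of 10.6% of the members' variance, 8.13% of that of the other abundant probe sets and 6.01% over all tested probe sets.

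Over the 28 arrays whose title number occurs in both regions, 1 member deviated with the number, where 0.0147% of all tested probe sets passed. This was AT3G11930, with OZ1 values of 7.27, 8.65 and 13.16 and OZ2 values of 7.62, 9.09 and 13.40. The highest array was number 10 in each region, OZ1-10 and OZ2-10, and the next highest OZ2 array stood at 11.66. The number took 91.1% of its variance (limma adjusted p = 0.0337), and the call was lost with array weights, with the ordinary F-test, and without the 6 arrays nearer the other region, the 11 with high controls, or OZ2-32, OZ2-9 and OZ2-10, sets that each hold OZ1-10 or OZ2-10.

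Without OZ2-32, OZ2-9 and OZ2-10, a setting added after seeing the data, 0.0294% of all tested probe sets passed. The member that passed was AT2G23910, the one with the largest spread. Over the 11 numbers then left (22 arrays) the number took 94.3% of its variance (limma adjusted p = 0.00501), against 64.6% over all 14 numbers (limma adjusted p = 0.529). Over all 14 numbers 50% is expected from the many terms alone, and the median over all tested probe sets was 51.8%. In 13 of the 14 numbers its signal was higher in the OZ2 array than in the OZ1 array of the same number, by 0.14 to 2.47 log2 units. Number 35 was low in both, with 5.83 in OZ1 and 7.13 in OZ2, and number 6 high in both, with 10.69 and 11.67. Number 9 went the other way, with 10.77 in OZ1 and 3.97 in OZ2, and was among those left out in that setting.

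How far the choice of members rests on single arrays was read from choosing the 150 anew. With quantile normalization 126 of the 150 were chosen again, and with 16 added to each signal before the log 140. With the SD taken within region and scan day 140 were shared, and on scan day 1 alone 85. Without the 11 arrays with controls over 5% the choice shared 80 members, and without OZ2-32, OZ2-9 and OZ2-10, a setting added after seeing the data, 93.

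The members chosen every time numbered 21. With a name or description these were LTI30, Cpn60beta3 and VHA-D. Among those with a locus identifier only were AT2G23910, AT4G30170, AT2G07708 and AT2G07751.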

How the data were processed

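Total RNA of 39 samples was hybridised to ATH1 arrays. The deposited values are intensity values from MAS5 (named in the submitters' processing notes without a version). Their trimmed mean (2nd to 98th percentile) was 249.8 to 249.9 on every array, so they had been scaled per array. Such scaling can raise dim probe sets where little labelled RNA was present, and whether it did so here was not tested. The authors also deposited instrument records (unit other), which gave the scan days and scanners. Values were taken to log2, and the 13627 probe sets with a mean above the 40th percentile (log2 5.69) were tested. Fits were made in R 4.3.3 by limma 3.58.1 (lmFit and trended eBayes, two-sided, Benjamini-Hochberg) and were tested on simulated data. The median signal per array was 54.1 to 163, and for arrays their number limits the precision. Names came from the probe table and RefSeq, where 150 of 150 members matched. Mitochondrion-encoded probe sets were matched by symbol. The members, lists and tests were chosen with earlier results of these data known. Genes were named if among the 12 with the largest SD, the 6 strongest calls of a test (6 each way for the control level), or next to the limit of the rule, and others as stated. Alternatives changed the normalization, filter, weights, blocks or arrays. Array numbers shared between regions were checked as pairs: of 14 pairs 3 correlated above 0.1 over all tested probe sets and 7 over the members, so they were not taken as paired.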

Additional observations from a re-analysis of the deposited data

Results flagged for a closer look

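AT5G59210 drew attention because its slope on the hybridisation control level differed between OZ1 and OZ2 in the test of the difference itself. The slope was lower in OZ2 by 1.15 per log2 unit of the control level (slope difference -1.15, limma adjusted p = 0.00408), and the low OZ2 values were on OZ2-9 (4.43) and OZ2-32 (4.91). Without the 11 arrays with controls over 5% the slope difference was -0.55, and without OZ2-32, OZ2-9 and OZ2-10 it was -0.57, neither past the threshold.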

How the results depend on the processing

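Of the members called on the control level (76 over all arrays), 18 were called without the 11 arrays with controls over 5%, 19 with the title number as a fixed replicate block over 28 arrays and 1 with the order as terms, and the count was 59 to 83 under the other alternatives. Of all tested probe sets 25.2% were called over all arrays, 4.3%, 3.06% and 0.198% under those 3 settings in that order, and 20.3% to 41.9% under the other alternatives. Leaving out OZ2-32, OZ2-9 or OZ2-10 alone gave 62 to 82 members and 22.4% to 26.0% of all tested probe sets. With the order as terms the slope of AT2G07708 became -0.0018, and without the 11 arrays that of MYBC1 became 0.0747. Along the order, 3 members were called with 16 added before the log (0.822% of all probe sets tested), 5 with no filter (2.21%), 7 with array weights (2.74%), 3 without the 6 arrays nearer the other region (0.367%), 2 with a scan day block (0.616%) and 8 with 2 harmonics (2.24%), against 0. Within OZ1, 31 were called with array weights (9.07% of all), against 0. For the scan day, 14 were called with array weights (1.67% of all) and 6 without those 6 arrays (0.624%). For the title number, 2 were called with no filter (0.0967% of all) and 0 with array weights, without the 6 or the 11 arrays, and with no moderation, a setting added after seeing the data like those without OZ2-32, OZ2-9 and OZ2-10. For the slope difference, 0 were called without the 11 arrays or without those 3. The choice of members shared 87 without the 6 arrays, 80 without the 11, 85 on scan day 1 alone and 93 without the 3. Same-numbered arrays were not all correlated: r ran from -0.248 to 0.196 over all tested probe sets, with 3 of 14 pairs above 0.1, and from -0.205 to 0.559 over the members, with 7 of 14 above 0.1. Over all tested probe sets 2 of 14 pairs correlated best with their own number. The cause of these changes was not tested. No detection calls were used, so the size of differences near the dim end is uncertain.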
